A study of Mus musculus with 16 samples.

Results

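The nuclear genes of respiratory complex I and its assembly factors were examined here, that is, the genes whose symbol begins with Nduf. A gene was taken if 8 or more of the 16 arrays put a probe set annotated with its symbol alone above their own median, and the brightest such probe set stood for the gene. This left 41 of the 13601 genes tested: 6 core subunits, 25 accessory subunits, 8 assembly factors and 2 further genes that carry the name, Ndufa4 and Ndufa4l2. The name did not match the complex for those last genes: NDUFA4 is now counted as a subunit of complex IV, and NDUFA4L2 is a related protein that is not a structural subunit of complex I. Of 51 probe sets with an Nduf symbol, 45 carried 1 symbol and 6 carried several. Ndufs5 was the 1 gene under the filter, with values of 3.58 to 4.54 log2 units against array medians of 4.43 to 4.61, and it exceeded the median on 1 array. Ndufb1, Ndufb2, Ndufb4 and Ndufs6 are among the subunits not analysed here. All 41 members lay above the median on all 16 arrays, the closest being Ndufaf2, whose lowest value was 0.50 above it, so none of the 41 was kept through 1 group alone.

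RNA came from whole gastrocnemius, a mostly fast-twitch calf muscle, of 16 male FVB/n mice aged 16 weeks, with 1 expression array per mouse. All mice carried floxed Foxo1, Foxo3 and Foxo4, received polyinosine:cytidine 3 times when 4 to 5 weeks old, and from the age of 7 to 8 weeks ate a high-fat diet (16.4% protein, 58% fat, 25.5% carbohydrate) over 8 weeks. The deletion group (n = 8; titled KO and also described as a knockdown) carried Mx1-Cre, and the control group (n = 8; titled WT) consisted of Cre-negative littermates with the same floxed alleles. The deletion is described as directed at the endothelium, but the Mx1 promoter answers to interferon and is not an endothelial promoter, and the presence of Cre cannot be told apart from the deletion it causes. The comparison asks how the muscle transcriptome under high-fat feeding differs once the FoxO factors have been deleted.

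Complex I is the entry point of the mitochondrial respiratory chain. It oxidises NADH in its matrix arm, passes the electrons to ubiquinone and pumps protons through its membrane arm. The core subunits carry out this chemistry and come from both genomes, the accessory subunits surround and stabilise them, and the assembly factors help to build the complex without staying in it. Skeletal muscle, and oxidative fibres above all, is rich in complex I.

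The promoters of the 3 members with the smallest p-values are shown because these members differed most relative to their error. They are RefSeq sequences of GRCm38.p6, 250 bases before to 50 bases after the annotated start, read 5′ to 3′ on the strand of the gene. Capitals mark a match to any of 5 motifs of 7 letters searched on both strands. These were GCATGCG for NRF1, CCGGAAG for ETS factors and GABP, AAGGTCA for the ERR receptors, AAGATGG for YY1 and GTAAACA for FoxO, the first 4 being factors known for nuclear genes of mitochondrial proteins.
Ndufa1, chrX:37191189-37191488, minus strand: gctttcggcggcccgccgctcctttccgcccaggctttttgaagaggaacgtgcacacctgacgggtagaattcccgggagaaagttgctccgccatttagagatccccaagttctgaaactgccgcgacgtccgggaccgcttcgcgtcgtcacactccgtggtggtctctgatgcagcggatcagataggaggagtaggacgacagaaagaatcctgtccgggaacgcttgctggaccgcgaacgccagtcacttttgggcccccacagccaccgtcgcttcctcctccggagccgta
Ndufb11, chrX:20617570-20617869, minus strand: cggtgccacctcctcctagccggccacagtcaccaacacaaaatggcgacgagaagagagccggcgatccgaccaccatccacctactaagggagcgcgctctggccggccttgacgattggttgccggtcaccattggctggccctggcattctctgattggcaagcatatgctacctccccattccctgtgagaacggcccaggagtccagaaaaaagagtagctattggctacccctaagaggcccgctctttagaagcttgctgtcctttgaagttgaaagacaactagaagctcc
Ndufa8, chr2:36049289-36049588, minus strand: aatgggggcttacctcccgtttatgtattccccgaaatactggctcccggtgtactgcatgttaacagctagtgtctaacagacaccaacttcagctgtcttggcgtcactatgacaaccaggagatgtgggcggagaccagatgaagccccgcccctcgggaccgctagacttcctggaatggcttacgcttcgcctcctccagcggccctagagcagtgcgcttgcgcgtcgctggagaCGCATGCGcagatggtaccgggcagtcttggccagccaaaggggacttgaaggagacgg
The Ndufa8 promoter held the NRF1 letters on both strands, in overlapping matches that begin at positions -9 and -8 from the start, and the Ndufa1 and Ndufb11 windows held none of the 5. RefSeq promoters were found for 36 of the 41 members, 38 promoters in all. The NRF1 letters were in 5 of these 38 (13.2%) against 3.58% of all 32851 promoters, the ETS and GABP letters in 6 (15.8%) against 8.86%, and the YY1 letters in 7 (18.4%) against 6.34%. The FoxO letters were in 1 (2.63%, Ndufaf1) against 3.65%, and the ERR letters in 0 against 4.72%. These matches describe the windows only.

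Array medians lay between 4.43 and 4.61 and correlations between arrays between 0.958 and 0.982. Markers of skeletal muscle fibres averaged 12.56 to 12.69 log2 units in every mouse of both groups. Of the targeted genes, the whole-muscle transcripts differed (deletion minus control) by 0.07 for Foxo1, 0.50 for Foxo3 and -0.24 for Foxo4, none past the threshold (limma adjusted p = 0.804, 0.0762 and 0.236). Where these probe sets lie relative to the deleted exons was not analysed here. Over all genes, 208 were higher and 41 lower at a limma adjusted p under 0.05, a higher share of 83.5%. This share became 65.3% with each array centred on its median over the genes tested, not over all probe sets. It became 72.4% with quantile normalization of the genes tested.

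No gene of complex I passed the threshold in the deletion mice: 0 of 41 members had a limma adjusted p under 0.05, where 1.83% of all genes did (1.53% higher and 0.301% lower). At an unadjusted p under 0.05 there were 3 members (7.32%), Ndufa1 and Ndufb11 lower and Ndufa8 higher, against 17.3% of all genes, 6.82% lower and 10.5% higher. The differences were small and leaned to 1 side. The fitted difference was below 0 for 35 of 41 members, where 49.8% of all genes tested were below 0, and the median was -0.05 log2 units against 0.00 over all genes. With each array centred on its median over the genes tested, 37 members and 64.9% of all genes were below 0. Single differences ran from -0.22 (Ndufb11) to 0.13 (Ndufa8). The 95% intervals of all members together reached from -0.43 to 0.35, which is 0.74-fold to 1.28-fold, so a change of 0.5 log2 units lay outside the interval of every member. The groups overlapped for every member, while they did not overlap for 0.353% of all genes. Members vary together from mouse to mouse, so the 35 are not independent genes.

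**Figure D1:**
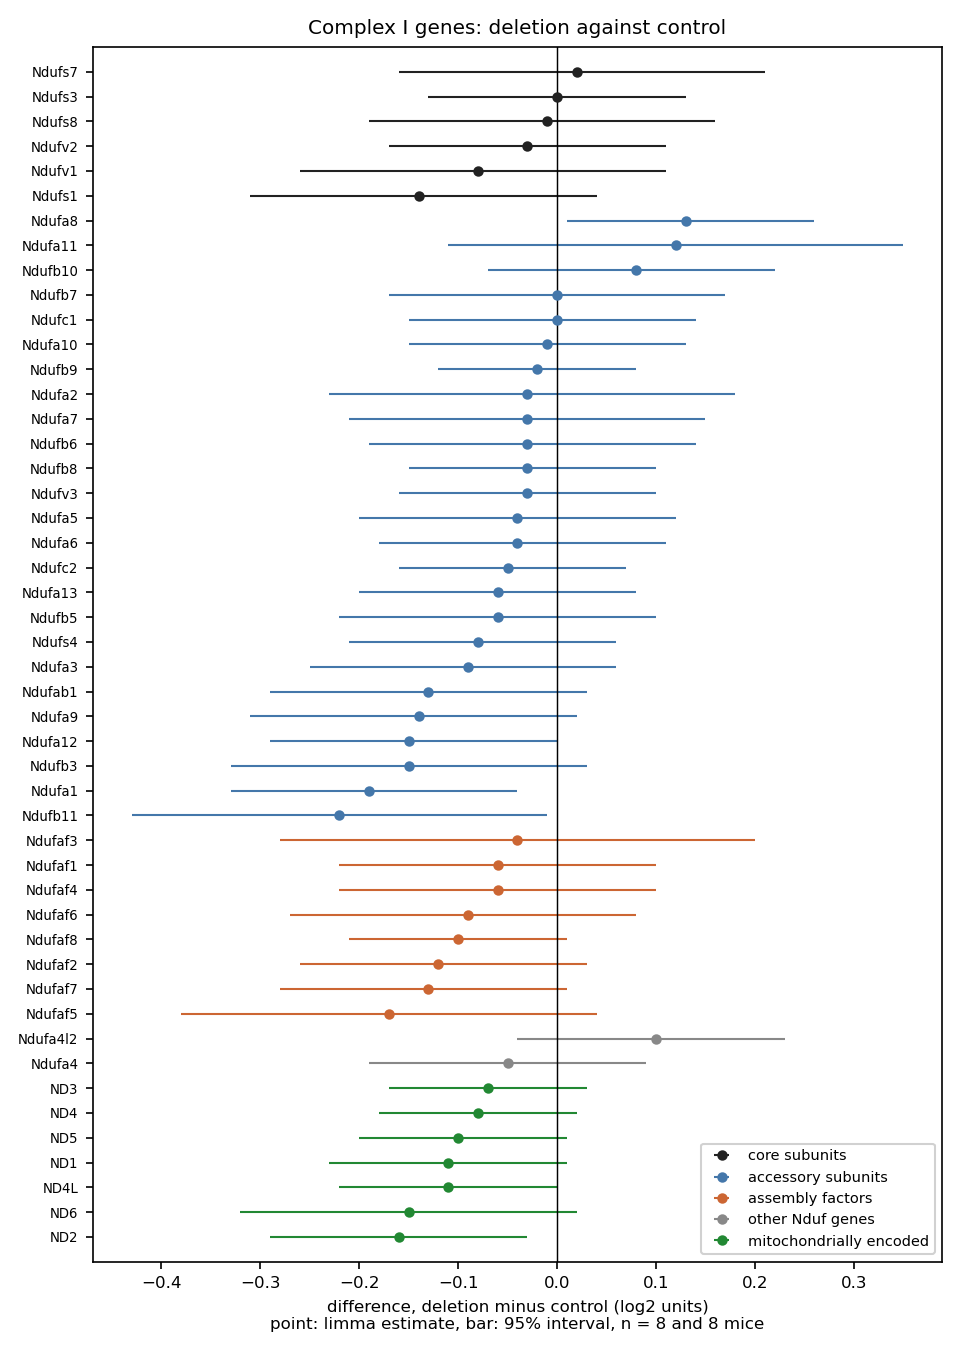
Difference between 8 deletion and 8 control mice in log2 units (horizontal axis) for each gene (vertical axis), with 95% limma intervals as bars, coloured by class. Most points lie a little left of 0, from -0.22 for Ndufb11 to 0.13 for Ndufa8, and few intervals leave 0 out.

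The core subunits bind the flavin and the iron-sulphur clusters that carry electrons from NADH to ubiquinone. Of the 6 measured, 0 passed the threshold, 0 had an unadjusted p under 0.05, 4 differences were below 0 and the median was -0.02. Ndufs1, the large iron-sulphur subunit, differed most. It measured 10.62, 10.78 and 10.87 (lowest, median and highest) in the control group against 10.17, 10.71 and 10.82 after deletion. Deletion mouse 6, at 10.17, lay far under the rest, and 3 of 8 deletion mice lay below every control. The difference was -0.14 (SE 0.08, limma adjusted p = 0.403), and -0.07 without deletion mouse 6. Ndufs7, which holds the last cluster before ubiquinone, stood at the other end with 10.56, 10.68 and 10.98 in the control group against 10.46, 10.76 and 11.01 after deletion. Its deletion values surrounded the controls on both sides, with 2 mice below and 2 above all of them, and differed by 0.02 (SE 0.09, interval -0.16 to 0.21, adjusted p = 0.915). Ndufv1, the NADH-binding subunit, differed by -0.08, its partner Ndufv2 by -0.03, and Ndufs8 and Ndufs3 by -0.01 and 0.00. In 5 of the 6 the SD was larger among the deletion mice, with a median of 0.21 against 0.10.

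The accessory subunits include the members with the largest differences in either direction. Of 25 measured, 0 passed, 22 differences were below 0, and the median was -0.04. Ndufa1, an X-linked subunit of the membrane arm close to the matrix arm, measured 9.0, 9.19 and 9.27 in the control group against 8.75, 8.97 and 9.25 after deletion. The groups overlapped, with 4 of 8 deletion mice below every control and deletion mouse 5 among the highest values. The difference was -0.19 (SE 0.07, interval -0.33 to -0.04, unadjusted p = 0.0137, limma adjusted p = 0.172). Ndufb11, also X-linked and part of the distal membrane arm, was tightly grouped in the controls at 6.34, 6.42 and 6.47 and spread out in the deletion mice at 5.80, 6.16 and 6.68. Of the deletion mice 6 lay below every control, mouse 4 reached the highest control and mouse 3 lay above them all. The SD was 0.29 in the deletion mice against 0.04, and the difference was -0.22 (SE 0.10, interval -0.43 to -0.01, adjusted p = 0.255), or -0.29 without deletion mouse 3 and -0.17 without deletion mouse 6.

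Ndufa8, a subunit of the membrane arm with disulphide-bonded cysteines, had the largest difference above 0, with 10.49, 10.58 and 10.76 in the control group against 10.58, 10.74 and 10.88 after deletion. In 7 of 8 deletion mice it lay above the control mean and in 2 above every control. The difference was 0.13 (SE 0.06, interval 0.01 to 0.26, adjusted p = 0.262), and a dimmer probe set of Ndufa8 differed by 0.11. Ndufa12, which lies on the matrix arm, measured 7.44, 7.66 and 7.79 against 7.31, 7.53 and 7.66 (difference -0.15, SE 0.07, adjusted p = 0.296). Here 3 deletion mice lay below every control, but a second, dimmer Ndufa12 probe set differed by 0.01. Ndufa9, at the junction of the arms, measured 10.31, 10.47 and 10.60 against 10.01, 10.35 and 10.54 (difference -0.14, SE 0.08, adjusted p = 0.358), its low values being those of deletion mice 1, 3 and 6. Ndufb3, of the distal membrane arm, measured 7.11, 7.41 and 7.73 against 7.03, 7.26 and 7.50 (difference -0.15, SE 0.09, adjusted p = 0.383), and its lowest control was control mouse 5.

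The remaining accessory subunits differed from -0.13 to 0.12. Ndufab1, the mitochondrial acyl carrier protein that also serves fatty acid synthesis, differed by -0.13, and Ndufs4, which is needed for a stable matrix arm, by -0.08. Ndufa11 differed by 0.12 on its brighter probe set and by -0.11 on its dimmer one, so its direction depended on the probe set. Ndufb9 lay at 12.61 to 12.76 in the control group against 12.57 to 12.75 after deletion, and differed by -0.02 (interval -0.12 to 0.08). Arranged by the part of the complex to which they are usually assigned, all 9 measured subunits of the NADH-binding module had differences below 0 (median -0.04), as did 3 of 5 in the quinone-reducing module (-0.01), 6 of 8 in the proximal membrane arm (-0.03) and 7 of 8 in the distal membrane arm (-0.03). The difference between modules was not tested.

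All 8 assembly factors had differences below 0, with a median of -0.10, 0 past the threshold and 0 with an unadjusted p under 0.05. Ndufaf8, which stabilises NDUFAF5, measured 7.16, 7.21 and 7.31 in the control group against 6.94, 7.13 and 7.20 after deletion. All 8 deletion mice lay below the control mean, and 5 of them below every control. The difference was -0.10 (SE 0.05, interval -0.21 to 0.01, limma adjusted p = 0.321). Ndufaf5, a hydroxylase that modifies the core subunit NDUFS7, had the largest difference of the class, with 7.18, 7.21 and 7.73 against 6.86, 7.22 and 7.40. Deletion mice 3 and 4 were low at 6.86 and 6.87, and control mice 5 and 6 were high at 7.73 and 7.54. The others of both groups lay between 7.14 and 7.44. The medians were thus nearly equal although the means differed by -0.17 (SE 0.10, adjusted p = 0.383). Ndufaf7, a methyltransferase needed for assembly, measured 7.68, 7.89 and 8.03 against 7.60, 7.75 and 7.88 (difference -0.13, SE 0.07, adjusted p = 0.316), with 7 of 8 deletion mice below the control mean. Ndufaf2, a chaperone related to NDUFA12, lay closest to the filter, at 5.26, 5.39 and 5.55 against 5.03, 5.31 and 5.45 (difference -0.12, SE 0.07, adjusted p = 0.396). Ndufaf3 varied widely in both groups, at 6.83, 7.09 and 7.53 against 6.76, 7.02 and 7.46, and differed least (-0.04, SE 0.11, adjusted p = 0.883). Ndufaf6, Ndufaf1 and Ndufaf4 differed by -0.09, -0.06 and -0.06.

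**Figure D2:**
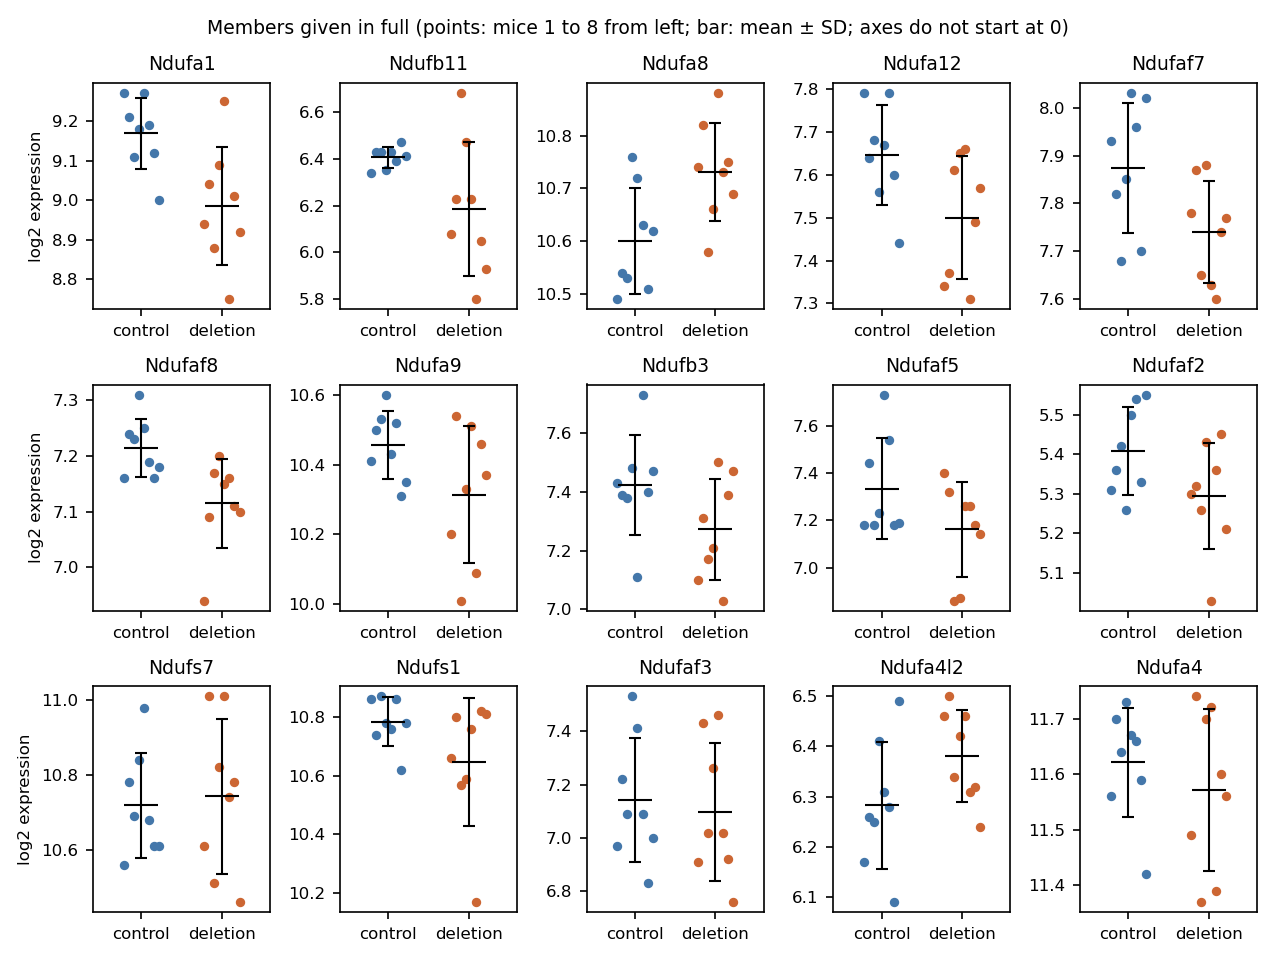
Log2 expression of 15 genes in each control (blue) and deletion (orange) mouse, with the mean and SD as bars and a separate vertical axis for each gene. The groups overlap in every panel, and Ndufb11 shows the tight controls (6.34 to 6.47) beside scattered deletion mice (5.80 to 6.68).

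The remaining genes with the name did not pass either. Ndufa4 measured 11.42, 11.65 and 11.73 in the control group against 11.37, 11.58 and 11.74 after deletion (difference -0.05, SE 0.07, adjusted p = 0.756). Ndufa4l2, a hypoxia-induced relative known to lower complex I activity, measured 6.09, 6.27 and 6.49 against 6.24, 6.38 and 6.50 (difference 0.10, SE 0.06, adjusted p = 0.442), with 7 of 8 deletion mice above the control mean.

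The lean below 0 was uneven among the deletion mice. The median deviation of the 41 members from their control means was -0.20 in deletion mouse 3, -0.17 in mouse 6 and -0.12 in mouse 1, with 37, 34 and 37 members below the control mean. In deletion mice 5 and 2 it was 0.08 and 0.05, with 11 and 10 members below. Deletion mice 4, 7 and 8 lay at 0.00, -0.01 and -0.02. The controls ran from -0.11 (control 8) to 0.09 (control 6), so 5 of the 8 deletion mice were inside the control range. Of all genes tested, 52.1%, 50.6% and 48.2% were below the control mean in deletion mice 1, 3 and 6. This share was 39.5% and 45.7% in deletion mice 2 and 5. Among the controls it ran from 42.4% (control 4) to 60.5% (control 7), where 33 of the 41 members were below. Among the members, which vary together from mouse to mouse, the SD was larger in the deletion mice for 31 of 41 (75.6%), against 63.8% of all genes. This held for 21 of 25 accessory subunits but only 4 of 8 assembly factors, whose median SD was 0.13 in the deletion group against 0.16 in the control group.

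**Figure D3:**
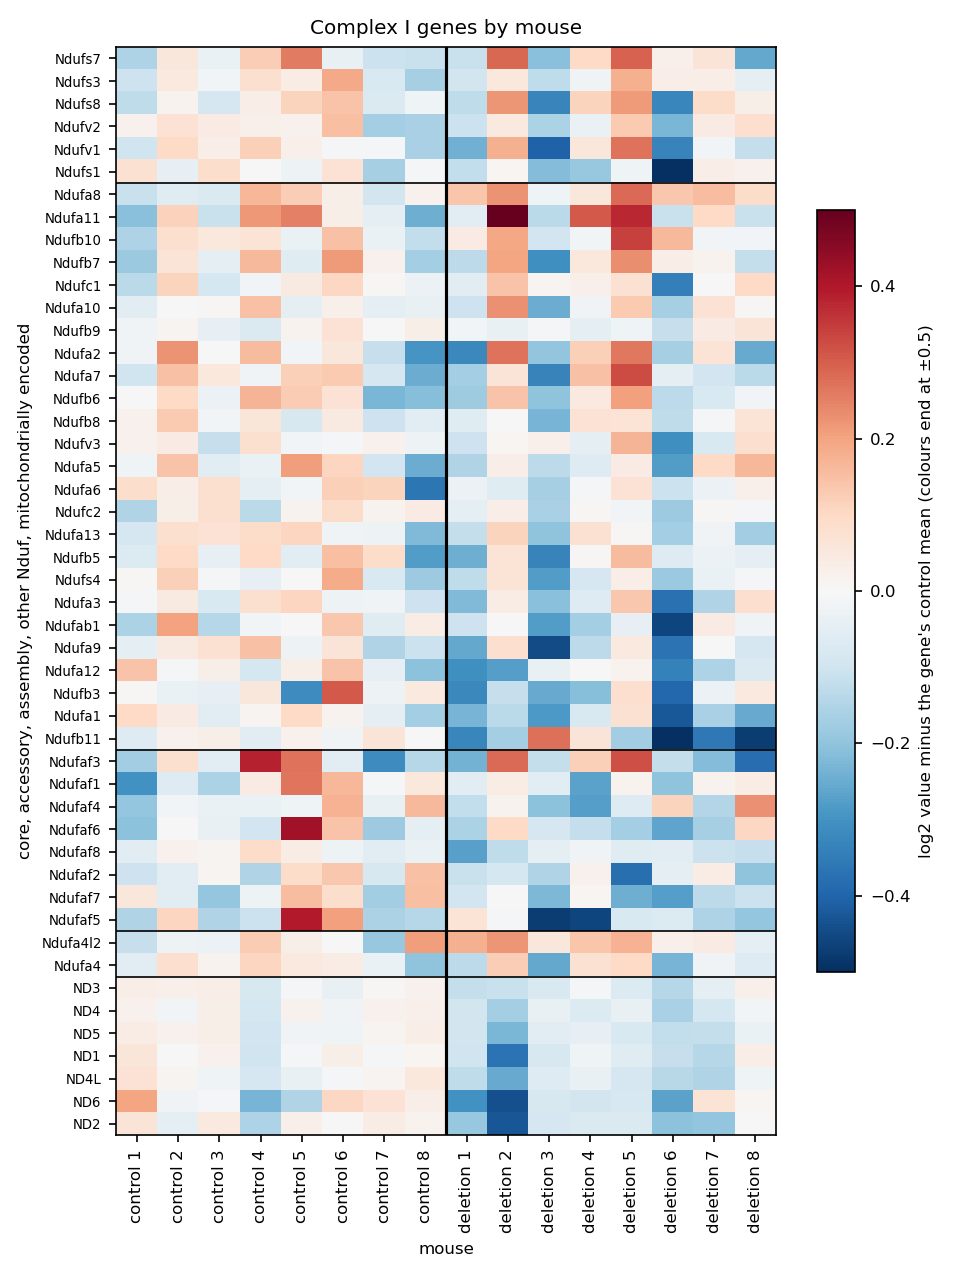
Each gene's log2 value minus its control mean (colour) in each of the 16 mice (columns), with genes as rows ordered by class. Deletion mice 1, 3 and 6 are blue for most nuclear genes (37, 37 and 34 of 41 below 0), deletion mice 2 and 5 are mostly red, and the 7 mitochondrially encoded genes at the bottom are faintly blue in most deletion mice.

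The mitochondrial genome encodes the other core subunits, which form the proton-pumping membrane arm, and all 7 were measured (ND1 to ND6 and ND4L). None passed the threshold, all 7 differences were below 0 with a median of -0.11, and 2 had an unadjusted p under 0.05. ND2 measured 13.13, 13.31 and 13.35 in the control group against 12.86, 13.15 and 13.28 after deletion. All 8 deletion mice lay below the control mean of ND2 and 4 below every control, and the difference was -0.16 (SE 0.06, interval -0.29 to -0.03, limma adjusted p = 0.206). ND6, from the other strand of the mitochondrial genome, differed by -0.15 (SE 0.08, adjusted p = 0.347), ND1 and ND4L by -0.11 (adjusted p = 0.350 and 0.273), ND5 by -0.10 (0.320), ND4 by -0.08 (0.376) and ND3 by -0.07 (0.483). Of these genes, 6 were among the 100 brightest of 41345 probe sets and ND4 was the brightest of all on 12 of 16 arrays, so their values lie at the top of a scale that RMA makes common to all arrays. How far their probes are shared with nuclear copies of mitochondrial DNA was not analysed here.

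The nuclear and the mitochondrial members did not put the mice in the same order. Deletion mouse 2 had the lowest mitochondrially encoded transcripts, with a median deviation of -0.25, while its nuclear members stood at 0.05. Deletion mouse 5 was at -0.07 and 0.08, and deletion mouse 3 at -0.08 and -0.20. Deletion mice 6 and 1 were low for both, at -0.14 and -0.17 and at -0.12 and -0.12. All 7 mitochondrial genes lay below their control means in deletion mice 1 to 6, 6 of 7 did in mouse 7 and 4 of 7 in mouse 8. Among the controls all 7 were below only in control mouse 4, at -0.10.

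**Figure D4:**
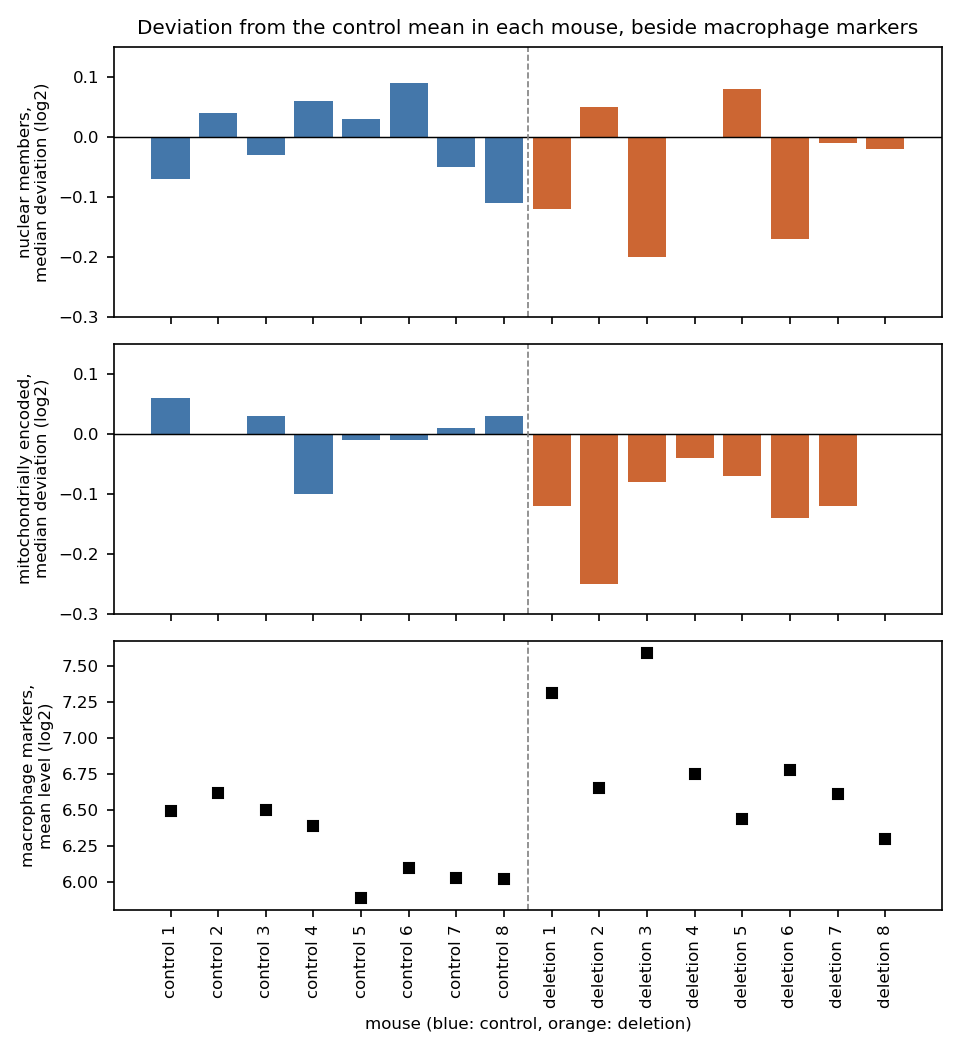
Median deviation from the control mean of the 41 nuclear members (top) and the 7 mitochondrially encoded genes (middle) in log2 units, and the mean log2 level of 10 macrophage markers (bottom), in each mouse. Nuclear members are lowest in deletion mice 3, 6 and 1, mitochondrial ones in deletion mouse 2, and the macrophage markers are highest in deletion mice 3 and 1 at 7.59 and 7.31.

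Some markers of several other cell types differed between the groups in the same samples. The 10 macrophage markers averaged 5.89 to 6.62 in the control group against 6.30 to 7.59 after deletion, with 4 of 10 higher past the threshold (C1qa, Vsig4, Mertk and Itgam) and 0 lower. The complement receptor gene Vsig4 rose by 1.17 (limma adjusted p = 0.0098). Their highest means were those of deletion mice 3 (7.59), 1 (7.31) and 6 (6.78), the mice with the lowest nuclear complex I transcripts. Deletion mouse 4 followed at 6.75, with a median deviation of its nuclear members of 0.00. The controls did not show the same order. Control 8, with the lowest nuclear deviation of the controls (-0.11), had a macrophage mean of 6.02. Control 2, with the highest macrophage mean (6.62), had a nuclear deviation of 0.04, while control 1 had 6.49 and -0.07. With the macrophage mean as a covariate, 17 of 41 member differences were below 0 in place of 35, and their median was 0.01. The covariate itself differs between the groups, and its part in the result was not tested. The 12 endothelial markers averaged 7.34 to 7.69 against 7.60 to 8.16, with 8 of 12 higher, among them Erg, an endothelial transcription factor, by 0.52 (adjusted p = 0.00276). Of a list of neutrophil and red cell markers only the neutrophil genes S100a8 and Csf3r were tested, and no red cell gene. These 2 averaged 4.42 to 4.92 against 4.79 to 6.21, highest in deletion mouse 6. S100a8 rose by 1.28 (adjusted p = 0.0227), and Csf3r differed by 0.32 (adjusted p = 0.0662). Of 6 adipocyte markers, which averaged 6.18 to 7.16 against 6.31 to 8.27, only 1 passed. This was the fatty acid binding protein gene Fabp4, higher by 0.49 (adjusted p = 0.0221). Adipoq differed by 0.21 (adjusted p = 0.733) and Lep by -0.16 (0.878), so the list as a whole was not called higher. The 9 fibroblast and tendon markers averaged 8.37 to 9.12 against 8.19 to 9.26 and were mixed, with 5 differences below 0 and 4 above. The matrix proteoglycan genes Fmod and Kera were lower, at -0.49 and -1.19 (adjusted p = 0.0175 and 0.0189). Col3a1 went the other way at 0.72 (adjusted p = 0.311). Of 5 Schwann cell and 6 liver markers 0 passed (2 and 0 at an unadjusted p under 0.05). The part of these cell types in the result was not tested. Markers of slow oxidative fibres ran from 6.69 to 9.31 in the control group against 8.07 to 9.82 after deletion with 0 of 10 past the threshold, and with their mean as a covariate 35 member differences were below 0. Markers of fast glycolytic fibres ran from 12.23 to 12.58 and 12.22 to 12.48. Liver transcripts stood out in 6 mice, whose Alb lay above 9 log2 units while the others reached 8.2 at most. Without them (6 controls and 4 deletion mice) 0 members passed and 39 of 41 differences were below 0, with a median of -0.11. The mice left out were control mice 2 and 7 and deletion mice 1, 2, 4 and 5. Those deletion mice had median deviations of -0.12, 0.05, 0.00 and 0.08. Deletion mice 3, 6, 7 and 8, which were kept, had -0.20, -0.17, -0.01 and -0.02. Whether Alb itself has a part in the change was not tested. In whole muscle, fewer cells of a type and less RNA per cell cannot be told apart.

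Genes that act with complex I but lack the name gave a like picture. Of 11 listed further assembly genes 10 were measured, 0 passed (also at an unadjusted p under 0.05), and all 10 differences were below 0 (median -0.04). Tmem126b, an inner membrane factor of the main assembly complex, had values of 7.35 ± 0.20 in control muscle against 7.17 ± 0.20 after deletion (mean ± SD over 8 mice a group, difference -0.18, SE 0.10, limma adjusted p = 0.33). Nubpl, which delivers iron-sulphur clusters, differed by -0.12 (adjusted p = 0.517). Of 16 regulators of mitochondrial gene expression 0 passed (1 at an unadjusted p under 0.05), 12 were below 0, and the median was -0.07. Tfb2m, a factor that starts transcription of mitochondrial DNA, came closest, at 7.87 ± 0.14 against 7.63 ± 0.08 (difference -0.24, SE 0.07, adjusted p = 0.0721). Ppargc1b, a coactivator of mitochondrial biogenesis, differed by -0.19 (adjusted p = 0.366) and its relative Ppargc1a by 0.25 (SE 0.16, adjusted p = 0.421). Gabpb1, a subunit of the ETS factor GABP, differed by 0.09 (adjusted p = 0.470).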

How the data were processed

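Expression was measured in 16 muscles with 1 array each, from 250 ng of total RNA. Each probe set has a deposited log2 value. Per the submitters' processing notes the authors used RMA and oligo; no source used here gives versions or the build of the probe sets. Values between 0.33 and 13.84 showed the log base. Of 41345 probe sets, 23521 had 1 symbol, 1814 several and 16010 none. The comparison used limma 3.58.1 (lmFit, eBayes; R 4.3.3), group as the only term, two-sided, with Benjamini-Hochberg adjustment over 13601 genes. Every adjusted p is limma's, the threshold is 0.05, and differences are deletion minus control. Mice are separate biological replicates per the labels. The procedure was tested on simulated data. The members, lists and motifs were chosen with earlier results of these data known. Members given in full are the 10 with the smallest p and those with the largest and smallest difference of each class. Of each pathway list, members past the threshold and up to 2 with the smallest p in each direction are named, with all mitochondrially encoded subunits; marker genes were named after their values were seen. Lists were described by counts and medians. Alternatives were other filters (none, 75th percentile), centring, quantile normalization, the mean of probe sets, a trended robust variance, array weights, the replicate number as a block, a slow fibre covariate, an adjusted p under 0.10 and leaving out each mouse. A macrophage covariate and leaving out mice with Alb above 9 log2 units were added after seeing the data. The precision is limited by the number of mice.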

Additional observations from a re-analysis of the deposited data

Results flagged for a closer look

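In 10 of 96 groups of 8 mice examined (41 nuclear members and 7 mitochondrially encoded genes in both groups), 1 mouse lay apart from the others, with a gap to its neighbour too large a part of the group's range by Dixon's 95% criterion. Chance gives about 1 in 20 groups when the groups are independent. Here the groups share the same mice and the genes vary together, so the count cannot be judged against that rate. Deletion mouse 6 was low for Ndufs1 (10.17, the next mouse at 10.57) and for Ndufc1 (8.55, next 8.84), and deletion mouse 1 for Ndufaf8 (6.94, next 7.09). Control mouse 8 was low for Ndufa6 (10.73, next 11.04), and control mouse 4 was high for Ndufa10 (11.23, next 11.11). Among the mitochondrially encoded genes, control mouse 4 was low for ND1 (13.39, next 13.48), ND4 (13.72, next 13.79) and ND5 (13.50, next 13.58). Deletion mouse 2 was low for ND1 (13.12, next 13.35) and ND5 (13.37, next 13.48).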

How the results depend on the processing

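Under every alternative run, 0 of the members tested passed the threshold. This includes an adjusted p under 0.10, leaving out each of the 16 mice, leaving out the mice with high Alb, and the fit with the replicate number as a block (0 members, 213 genes in all). The smallest adjusted p of a member given in full was 0.0806, for Ndufb11. The number of differences below 0 was 30 to 37 with 1 mouse left out and 34 to 39 under the other settings, except that it was 17 with the macrophage covariate, and the cause was not tested. With 1 mouse left out, the median difference was -0.07 to -0.03 for all members, -0.05 to 0.01 for core subunits, -0.07 to -0.02 for accessory subunits, -0.12 to -0.08 for assembly factors and -0.12 to -0.08 for mitochondrially encoded subunits. With centred arrays these 5 medians were -0.10, -0.07, -0.09, -0.15 and -0.16, and with the macrophage covariate 0.01, 0.05, 0.01, -0.05 and -0.10. The core median was -0.12 without the mice with high Alb. Ndufs7 ranged from -0.01 to 0.06 and Ndufaf3 from -0.10 to 0.01 with 1 mouse left out. Ndufs7 turned to -0.03 with centred arrays, to -0.01 without deletion mouse 2 or without deletion mouse 5, and to -0.10 without the mice with high Alb. Ndufaf3 turned to 0.01 without control mouse 4 and to 0.00 without deletion mouse 8, Ndufa4l2 to -0.02 without the mice with high Alb, and Ndufa4 to 0.01 with the macrophage covariate. The causes were not tested. Ndufa12 was -0.07 with the mean of its probe sets. Over all genes, 137 were called with no filter, 145 with the slow fibre covariate, 39 with the macrophage covariate, 7 without the mice with high Alb, 505 at an adjusted p under 0.10, and 107 to 680 with 1 mouse left out (107 without deletion mouse 6, 680 without deletion mouse 8), against 249. Same-numbered deviations of the 2 groups correlated at -0.08 to 0.25 over genes, 4 of 8 above 0.1. In all, 3 of 8 controls and 1 of 8 deletion mice correlated best with their own number. Whether the replicate numbers pair the mice cannot be told from these values. A median SE of 0.07 log2 units per member limits what 8 mice per group can show.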

Other observations

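The subunits of the other respiratory complexes were also spread more widely in the deletion mice than in the controls, without a shift past the threshold. The SD was larger among deletion mice for 4 of 4 subunits of complex II and 8 of 8 of complex III. It was also larger there for 10 of 10 of complex IV (Ndufa4 among them) and 14 of 15 of complex V. Over all genes this share was 63.8%. How far these subunits vary together from mouse to mouse was not analysed, so they cannot be counted as independent genes. Of these subunits 0 passed the threshold by limma, 0 had an unadjusted p under 0.05, and their median differences were -0.02, -0.05, -0.04 and -0.01. Atp5k of complex V came closest to it at -0.16 (SE 0.08, limma adjusted p = 0.294), followed by Cox7b of complex IV at -0.26 (adjusted p = 0.297) and Uqcrb of complex III at -0.13 (adjusted p = 0.311). The next in each complex were Atp5g1 at -0.22 (adjusted p = 0.444), Cox8b at -0.07 (0.708) and Uqcr11 at -0.16 (0.511). Sdha, the catalytic subunit of complex II, differed by -0.07 (adjusted p = 0.563) and Sdhc by -0.04 (0.825). Above 0, Cox7a2 and Cox4i1 of complex IV differed by 0.06 and 0.05 (adjusted p = 0.756 and 0.769), and Atp5g2 and Atp5d of complex V by 0.05 and 0.09 (0.752 and 0.829).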
